A study of Mus musculus with 6 samples.

Results

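The tight junction genes described here are 7 claudins (Cldn2, Cldn3, Cldn4, Cldn7, Cldn12, Cldn15 and Cldn23), occludin (Ocln) and the zonula occludens scaffolds ZO-1 (Tjp1) and ZO-3 (Tjp3). They were taken by symbol from the deposited expression table, which held all 10 of them among its 21397 genes, and all 10 passed the filter on low values and were tested. Organoids were grown from small intestinal crypts of Fpr2f/f mice, which carry a floxed Fpr2 gene without Cre, and were cultured for 5 days with MMK-1, a synthetic peptide agonist of the receptor FPR2, at 1 μmol/L, or with 0.1% DMSO as Control. GEO's treatment field for MMK-1 gives this dose in mmol/L, and the unit of the protocol text and of the study's methods was used here. Each group had 3 libraries, and each library came from organoids of 3 mice.

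Tight junctions seal the space between neighbouring epithelial cells at their apical border. Claudins span the membrane and form the strands of the junction, some as barriers and some as pores for small ions or water, and occludin lies in the same strands. ZO proteins bind the tails of claudins and tie the strands to the actin cytoskeleton. In the small intestine the mixture of claudins changes from crypt to villus and as cells mature.

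RNA was measured as FPKM, the fragments on a gene divided by its length and by the depth of the library. Whole fragments were recovered from these values, with 35512739 to 37537463 per library, and the 10 genes held between 580 and 20381 fragments in each library. MMK-1 replicate 3 stood apart from the other two MMK-1 libraries, with a chi-square per degree of freedom of 36.6 and 31.3 against them, where the Control pairs gave 2.84 to 4.97 and counting noise alone gives about 1. The groups were compared with limma-trend on log2(FPKM + 1), in which fold changes of low genes are understated, over the 10551 genes whose mean FPKM reached 1. Over these genes the median log2 fold change was 0.13, and under scaling with trimmed means (TMM) it was 0.00, so the members' changes are also given less that median. The p-values measure the spread between these libraries.

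Cldn4 rose with MMK-1 and was the only one of the 10 genes to change at least 2-fold. Another 4, Cldn12, Cldn3, Cldn2 and Tjp3, were higher at an adjusted p of at most 0.05, and Cldn7, Cldn15, Cldn23, Ocln and Tjp1 did not pass the test. Thus 5 of 10 were higher and 0 lower in the limma test, where 48.5% of all genes tested were higher and 24.7% were lower (73.2% in all). An unadjusted p under 0.05 also gave 5 and 0, beside 5250 higher and 2691 lower of all 10551 genes tested. With limma-voom on the recovered fragments and TMM scaling, 2 members were higher and 4 were lower (Cldn7, Cldn15, Ocln and Tjp1), where that fit called 35.3% of all genes higher and 36.5% lower. By the rule of at least a 2-fold change with an unadjusted p up to 0.05, 1 member was higher, where 3.39% of all genes tested were higher and 3.65% were lower. All 3 MMK-1 libraries lay above all 3 Control libraries for 5 members and below them for 0, against 50.5% and 26.3% of genes tested (76.8% in all). As deposited, the members' median log2 fold change was 0.07 and their median absolute change 0.08, while the median absolute change of all genes tested was 0.30. These medians depend on the scaling: the log2 fold change was above 0 for 7 members as deposited, for 3 with TMM scaling and for 4 after GC correction. Less the median of all genes tested, the log2 fold changes were 1.28 for Cldn4, -0.19 for Cldn7, -0.14 for Cldn15, -0.11 for Cldn23, -0.13 for Ocln and -0.13 for Tjp1, and those of the other 4 stand beside their values. In bulk RNA, fewer cells of a type and less RNA per cell cannot be told apart.

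**Figure D1:**
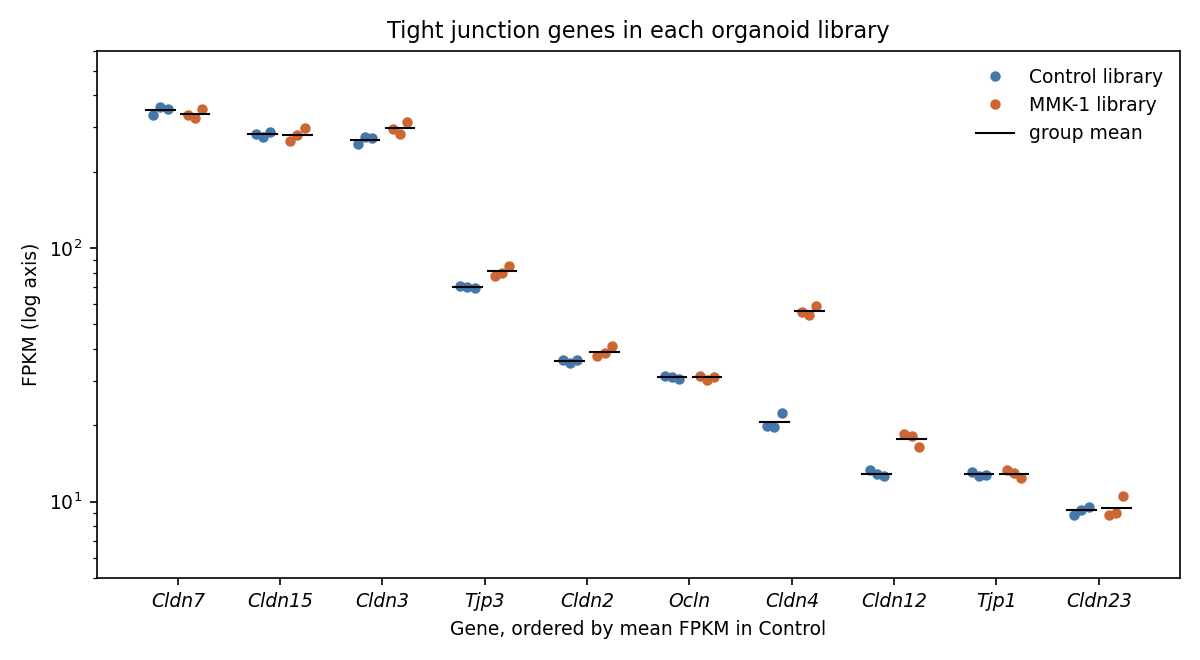
FPKM on a log axis of the 10 tight junction genes in each library, with Control in blue, MMK-1 in orange, replicates 1 to 3 from left to right and a bar at each group mean (n = 3). Cldn4 moved from 19.7 to 22.4 in Control to 54.6 to 58.9 with MMK-1, while the groups overlapped for Cldn7, Cldn15, Ocln, Tjp1 and Cldn23.

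Cldn4 (NCBI gene 12740) encodes claudin-4, a barrier-forming claudin and a receptor of Clostridium perfringens enterotoxin. It lies on the minus strand of chromosome 5 (134945119 to 134946934, GRCm38), 39279 bases from Cldn3, its neighbour on the plus strand (134986214 to 134987472). To show the sequence next to the gene with the largest change, the 250 bases before its RefSeq start (chr5:134946935-134947184, minus strand) are printed beside those of its neighbour Cldn3 (chr5:134985964-134986213, plus strand) and of Cldn15 (chr5:136967619-136967868, plus strand), the other member with an AP-1 match, all on GRCm38.p6. Capitals mark matches on either strand to the AP-1 motif TGANTCA and to the GC box GGGCGG, which do not overlap here.
Cldn4: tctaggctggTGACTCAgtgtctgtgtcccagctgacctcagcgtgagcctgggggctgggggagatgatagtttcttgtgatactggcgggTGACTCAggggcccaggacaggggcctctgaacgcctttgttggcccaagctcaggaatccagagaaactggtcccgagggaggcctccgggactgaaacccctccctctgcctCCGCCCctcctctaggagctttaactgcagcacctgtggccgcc
Cldn3: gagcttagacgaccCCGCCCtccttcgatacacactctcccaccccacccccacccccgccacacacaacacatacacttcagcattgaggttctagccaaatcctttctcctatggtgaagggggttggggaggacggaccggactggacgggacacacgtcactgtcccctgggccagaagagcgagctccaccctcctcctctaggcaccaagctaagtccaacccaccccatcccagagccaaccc
Cldn15: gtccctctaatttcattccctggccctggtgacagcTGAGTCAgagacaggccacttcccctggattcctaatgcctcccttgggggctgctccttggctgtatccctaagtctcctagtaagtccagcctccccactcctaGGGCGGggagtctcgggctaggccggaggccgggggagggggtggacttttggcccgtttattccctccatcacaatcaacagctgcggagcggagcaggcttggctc
RefSeq starts were found for 9 of the 10 genes, all but Cldn23. AP-1 letters occurred upstream of 2 of these 9 genes and in 6.75% of all 32851 upstream windows. In Cldn4 they occurred at 240 to 234 and at 158 to 152 bases before the start, and 0.338% of windows held at least 2 such matches. GC box letters occurred upstream of 7 of 9 genes, counting any of a gene's starts, and in 32.7% of windows. The letters CTTTGA, a form of the TCF/LEF motif that was also searched on both strands, were found upstream of 0 of 9 genes and in 13.8% of windows. Other forms of this motif were not searched, so the count does not cover them. These matches describe the letters of the windows, and no factor's binding was measured.

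The level of Cldn4 was 19.8, 19.7 and 22.4 FPKM in the Control libraries and 56.1, 54.6 and 58.9 FPKM in the MMK-1 libraries. Every MMK-1 library was thus far above every Control library, and MMK-1 replicate 3 did not stand apart. The means were 20.7 ± 1.55 FPKM and 56.6 ± 2.19 FPKM (SD, n = 3), a 2.74-fold difference, with 1341 to 1520 fragments behind each Control value and 3557 to 3967 behind each MMK-1 value. The log2 fold change was 1.41 (SE 0.06, 95% interval 1.28 to 1.54, limma adjusted p = 1.3e-07), above that of 99.0% of genes tested. The exact two-sided permutation p was 0.1, the smallest that 3 against 3 libraries allow, and it was the same for Cldn12, Cldn3, Cldn2 and Tjp3. Under every other scaling, correction, filter, unit and omission of a library that was tried, the log2 fold change of Cldn4 stayed between 1.30 and 1.47 and past the threshold.

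Cldn12 rose next most. It encodes a claudin that lacks the PDZ-binding tail by which other claudins hold ZO proteins, and lies on chromosome 5 (5489537 to 5514958, minus strand). Its level was 13.3, 12.8 and 12.6 FPKM in Control and 18.5, 18.1 and 16.4 FPKM with MMK-1. The groups did not overlap, and MMK-1 replicate 3 was the lowest of its group. The mean moved from 12.9 ± 0.34 to 17.7 ± 1.13 FPKM (SD, n = 3) and the log2 fold change was 0.43 (SE 0.05, limma adjusted p = 1.1e-04). Less the median of all genes it was 0.29, and without MMK-1 replicate 3 the log2 fold change was 0.48. Cldn4 and Cldn12 were the members that stayed past the threshold and higher under all alternatives, with 0.27 the lowest value of Cldn12, after GC correction.

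**Figure D2:**
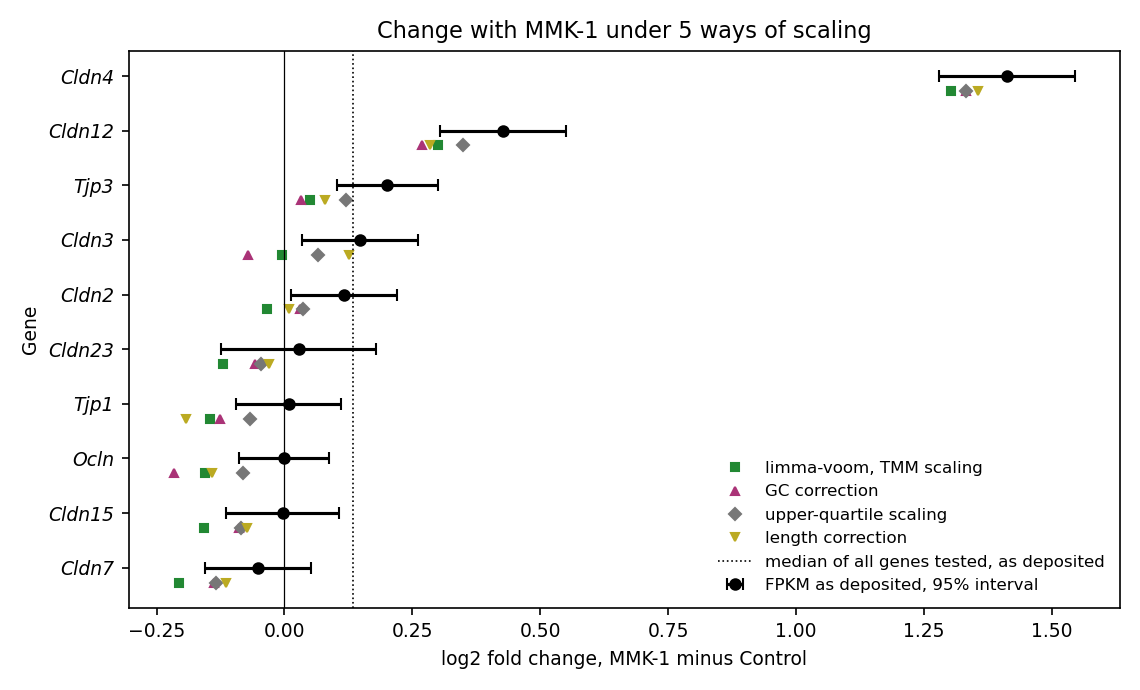
log2 fold change (MMK-1 minus Control) of the 10 genes, as black points with 95% intervals for FPKM as deposited (n = 3 per group) and as coloured points for 4 other scalings or corrections, with a dotted line at the median of all genes tested, 0.13. Cldn4, Cldn12 and Tjp3 lay to the right of 0 under all 5, while the points of Cldn2, Cldn3, Cldn23 and Tjp1 fell on both sides of 0.

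Cldn3 and Cldn7 are barrier claudins with high levels in this epithelium. Cldn3, which like Cldn4 binds the clostridial enterotoxin, was at 257, 275 and 272 FPKM in Control and 294, 282 and 314 FPKM with MMK-1. The groups were apart by less than the range within either of them. Its log2 fold change was 0.15 (SE 0.05, limma adjusted p = 0.024), or 0.01 less the median of all genes, and it turned to -0.00 with TMM scaling and to -0.07 after GC correction. Without Control replicate 1 its adjusted p was 0.090, and without the filter on low values 0.059. Its exons have the highest GC content of the 10 genes, 62.7%, against 44.1% for Ocln. An antisense gene, Wbscr25, overlaps the end of Cldn3 by 40 bases and held at most 8 fragments in a library. Cldn7 (chromosome 11, 69964779 to 69967885, plus strand), whose protein binds the adhesion molecule EpCAM, was at 336, 361 and 355 FPKM in Control and 335, 326 and 353 FPKM with MMK-1. The groups overlapped, and the log2 fold change was -0.05 (95% interval -0.16 to 0.05, limma adjusted p = 0.33). Without MMK-1 replicate 3 it was -0.08, and with TMM scaling it was -0.21 (adjusted p = 0.0014).

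Cldn2 and Cldn15 encode pore-forming claudins that let sodium and other small cations pass between cells. Cldn2, on the X chromosome (139800828 to 139811386, plus strand), was at 36.2, 35.3 and 36.1 FPKM in Control and 37.4, 38.4 and 41.1 FPKM with MMK-1. The groups did not overlap, with MMK-1 replicate 3 the highest. The log2 fold change was 0.12 (SE 0.05, limma adjusted p = 0.044), which is -0.02 less the median of all genes, and it was -0.03 (adjusted p = 0.44) with TMM scaling. With the replicate number as a block its adjusted p was 0.062, and without any 1 Control library or MMK-1 replicate 2 it was 0.070 to 0.14. Cldn15 (chromosome 5, 136966616 to 136975858, plus strand) was at 282, 274 and 287 FPKM in Control and 264, 280 and 296 FPKM with MMK-1. Its MMK-1 libraries spanned the whole Control range, and the log2 fold change was -0.00 (95% interval -0.11 to 0.11, limma adjusted p = 0.95). With TMM scaling it was -0.16 (adjusted p = 0.0066).

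Cldn23, a claudin best known from mature surface cells, had the lowest level of the 10 genes. It was at 8.84, 9.27 and 9.55 FPKM in Control and 8.82, 9.02 and 10.5 FPKM with MMK-1 (chromosome 8, 35824712 to 35826559, minus strand). The groups overlapped and MMK-1 replicate 3 was the highest library. The log2 fold change of 0.03 (95% interval -0.12 to 0.18, limma adjusted p = 0.71) was -0.04 without that library. Its 580 to 721 fragments per library give a counting error of about 4.0% per Control library, near the 3.9% coefficient of variation seen among them. For the MMK-1 libraries the counting error was also about 4.0%, but their coefficient of variation was 9.6%.

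Occludin and ZO-1 had nearly the same levels in both groups in FPKM as deposited. Ocln (chromosome 13, 100496507 to 100552718, minus strand) was at 31.2, 31.0 and 30.4 FPKM in Control and 31.4, 30.2 and 30.9 FPKM with MMK-1. The groups overlapped, with the smallest change of the 10 genes as deposited, a log2 fold change of -0.00 (95% interval -0.09 to 0.09, limma adjusted p = 0.98). Tjp1 (chromosome 7, 65296165 to 65527781, minus strand), which encodes the scaffold ZO-1, was at 13.1, 12.6 and 12.7 FPKM in Control and 13.3, 13.0 and 12.4 FPKM with MMK-1. Its log2 fold change was 0.01 (95% interval -0.09 to 0.11, limma adjusted p = 0.88). With TMM scaling both were lower with MMK-1, Ocln by a log2 fold change of -0.15 (adjusted p = 0.0028) and Tjp1 of -0.15 (adjusted p = 0.014). After GC correction Ocln was at -0.22 (limma adjusted p = 5.6e-04) and Tjp1 at -0.13 (limma adjusted p = 0.025).

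Tjp3 encodes ZO-3, a scaffold of epithelial junctions, and lies on chromosome 10 (81273207 to 81291581, minus strand). It was at 70.8, 70.2 and 69.6 FPKM in Control and 77.6, 80.1 and 85.0 FPKM with MMK-1. All MMK-1 libraries were above the Control libraries, which agreed within 0.8% (coefficient of variation). The log2 fold change was 0.20 (SE 0.04, limma adjusted p = 0.0027), or 0.07 less the median of all genes, and with TMM scaling it was 0.05 (adjusted p = 0.20). Apba3 overlaps the end of Tjp3 by 40 bases, and whether reads were counted by strand was not given in the sources used here.

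Ratios between genes of the same library do not depend on a scaling factor per library, but they do depend on corrections that differ between genes. The ratio of Cldn4 to Cldn3 was 0.0772, 0.0718 and 0.0826 in Control and 0.191, 0.193 and 0.188 with MMK-1. This ratio of neighbouring genes was 2.47 times as high with MMK-1 and the groups were far apart. The ratio of Cldn3 to Cldn7 was 0.765, 0.762 and 0.766 in Control and 0.879, 0.866 and 0.890 with MMK-1. The Control libraries nearly coincided and the MMK-1 libraries were 1.15 times as high, a log2 difference of 0.20 that was 0.07 after GC correction. The ratio of the pore-forming pair, Cldn2 to Cldn15, was 0.128, 0.129 and 0.126 in Control and 0.141, 0.137 and 0.139 with MMK-1, or 1.09 times as high, again with groups apart, a log2 difference of 0.12 as deposited and after GC correction and 0.08 after length correction. The ratio of Tjp3 to Tjp1 was 5.41, 5.57 and 5.48 in Control and 5.85, 6.16 and 6.86 with MMK-1. That of Ocln to Tjp1 overlapped between the groups (2.41 ± 0.05 in Control and 2.40 ± 0.09 with MMK-1, SD, n = 3). None of these ratios was tested.

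The claudins together summed to 957 to 999 FPKM in Control and 1014 to 1095 FPKM with MMK-1, over the 20 claudins in the table. Cldn7, Cldn15 and Cldn3 made up most of this sum in every library. The share of Cldn4 was 2.10% ± 0.13 in Control and 5.42% ± 0.06 with MMK-1 (SD, n = 3). The share of Cldn7 was 35.6% ± 0.67 in Control and 32.4% ± 0.37 with MMK-1, also without overlap. Shares of a sum move together. In FPKM as deposited, Cldn7 itself overlapped between the groups, and the claudin sum was 60.6 FPKM higher with MMK-1. With TMM scaling Cldn7 itself was lower (log2 fold change -0.21, limma-voom adjusted p = 0.0014), and the sum was not computed under other scalings. The share of Cldn3 was 27.2% ± 0.45 and 28.5% ± 0.53, with groups just apart, and that of Cldn12 was 1.31% ± 0.06 and 1.70% ± 0.18. The shares of Cldn15 (28.6% and 26.9%), Cldn2 (3.65% and 3.74%) and Cldn23 (0.94% and 0.90%) overlapped between the groups. No test was made on the shares.

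**Figure D3:**
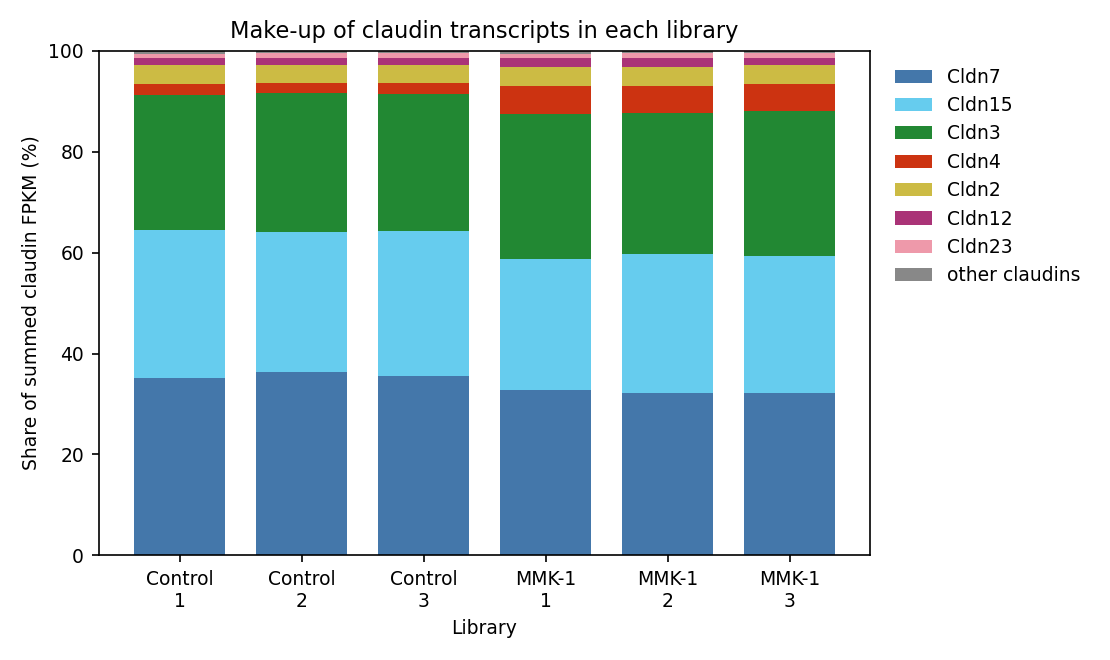
Share of the summed claudin FPKM (%, stacked bars from 0 to 100) of each claudin in the 3 Control and 3 MMK-1 libraries. The Cldn4 band widened from 1.99 to 2.25% in Control to 5.38 to 5.49% with MMK-1, and the Cldn7 band was 35.1 to 36.4% and 32.2 to 32.8%.

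In the order of FPKM levels, which are per length, Cldn7 was first and Cldn23 last in both groups. In Control the order was Cldn7, Cldn15, Cldn3, Tjp3, Cldn2, Ocln, Cldn4, Cldn12, Tjp1 and Cldn23. The ranges of Cldn15 and Cldn3 overlapped, as did those of Cldn12 and Tjp1, and the other neighbours were apart. With MMK-1, Cldn4 moved from rank 7 to rank 5, above Cldn2 and Ocln. Cldn3 was above Cldn15 in 3 of 3 MMK-1 libraries and below it in 2 of 3 Control libraries, with ranges that overlapped in both groups.

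Of the 27 other claudins looked for, 13 were in the table and the rest were not analysed here. Cldn8, a barrier claudin best known from the distal gut and kidney, was the 1 of them with a mean FPKM of at least 1, at 5.25 ± 0.18 in Control and 5.19 ± 0.78 with MMK-1 (SD, n = 3; log2 fold change -0.02, limma adjusted p = 0.82). After GC correction its log2 fold change was -0.39 (adjusted p = 1.7e-04), and without MMK-1 replicate 3 it was 0.07 (adjusted p = 0.28). The other 12 had at most 8 fragments in a library, and 1 of them, Cldn17, was at 0 in all.

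Across 8 lists of junction, polarity and actomyosin genes with Cldn8, 31 of 68 tested genes (45.6%) were higher and 13 (19.1%) were lower in the limma test, beside 48.5% and 24.7% of all genes tested, with a median log2 fold change of 0.09. With TMM scaling these counts were 20 and 27, where those of all genes tested were 3725 and 3855 in place of 5118 and 2606. The lists were described by counts and medians without a set test.

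Among the other membrane proteins of the strands, 1 of 4 tricellular and MARVEL genes was higher and 1 was lower (median 0.02), or 1 and 2 with TMM scaling. Lsr, the angulin of tricellular corners, rose (96.4 to 122 FPKM, log2 fold change 0.33, limma adjusted p = 2.0e-04), and Marveld3 was lower (10.2 to 9.23 FPKM, -0.13, adjusted p = 0.037), a call that was lost with TPM scaling (adjusted p = 0.072), with the replicate block and without any 1 library other than MMK-1 replicate 3 (adjusted p = 0.058 to 0.13). Of 4 genes of the JAM family, 2 were higher and 1 was lower in both fits (median 0.31 as deposited). Cxadr, an adhesion protein and virus receptor, rose (13.2 to 21.1 FPKM, 0.62, adjusted p = 6.5e-04). Esam was higher at a low level (0.67 to 1.49 FPKM, 0.59, adjusted p = 0.0048, and 1.12 with a pseudocount of 0.1 or 1.10 with limma-voom), and F11r, which encodes JAM-A, was lower (63.9 to 57.9 FPKM, -0.14, adjusted p = 0.014). Without Control replicate 2, Control replicate 3 or MMK-1 replicate 2 the adjusted p of F11r was 0.052 to 0.058. With TMM scaling Marveld3 was at -0.29 (adjusted p = 7.5e-04) and F11r at -0.29 (adjusted p = 7.0e-05), and both were at -0.20 to -0.23 after GC or length correction.

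Of 11 cytoplasmic scaffolds, 4 were higher and 2 were lower (median 0.08), or 2 and 3 with TMM scaling. Amot (angiomotin) rose from 4.72 to 9.18 FPKM (0.83, adjusted p = 1.0e-06) and Ybx3, whose product is a Y-box factor held by ZO-1, from 128 to 171 FPKM (0.41, adjusted p = 1.2e-05). Patj, a scaffold of the Crumbs complex, fell from 15.8 to 9.81 FPKM (-0.64, adjusted p = 1.7e-05) and Tjap1 from 21.3 to 17.7 FPKM (-0.25, adjusted p = 0.0031).

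Of 11 polarity genes, 6 were higher and 2 were lower (median 0.16), or 5 and 4 with TMM scaling. The 2 atypical protein kinases C moved in opposite directions, Prkci from 10.4 to 16.7 FPKM (0.63, adjusted p = 2.7e-06) and Prkcz from 6.25 to 3.86 FPKM (-0.58, adjusted p = 1.7e-05). Scrib (0.68, adjusted p = 4.5e-06) and Pard6a (0.65, adjusted p = 4.3e-04) were higher and Pard3 was lower (-0.14, adjusted p = 0.023). Without Control replicate 2, Control replicate 3 or MMK-1 replicate 1 the adjusted p of Pard3 was 0.055 to 0.095, with TPM scaling it was 0.053, while Pard3 was at -0.31 with TMM scaling (adjusted p = 1.5e-04) and at -0.37 after length correction (adjusted p = 1.0e-04). Of 14 actomyosin genes, 6 were higher and 6 were lower (median 0.07), or 4 and 7 with TMM scaling. Mylk, the myosin light chain kinase that contracts the perijunctional ring, was 15.8, 15.4 and 14.9 FPKM in Control and 6.48, 6.63 and 6.86 FPKM with MMK-1. The groups were far apart, and its log2 fold change of -1.10 (SE 0.05, adjusted p = 1.4e-07) was the largest fall on these lists. Arhgef2, a guanine nucleotide exchange factor held at junctions (2.46 to 1.19 FPKM, -0.66, adjusted p = 9.9e-06, and -0.99 with a pseudocount of 0.1 or -1.20 with TMM scaling), and the non-muscle myosin Myh14 (-0.38, adjusted p = 1.4e-04) also fell. The kinases Rock1 (0.81, adjusted p = 0.0018) and Rock2 (0.37, adjusted p = 0.0012) and the actin-binding Shroom2 (0.35, adjusted p = 0.0062) were higher, but after GC correction Rock1 was at 0.32, Rock2 turned to -0.02 and the call of Shroom2 was lost (adjusted p = 0.053). Length correction ended the calls of Rock2 (adjusted p = 0.066) and Shroom2 (adjusted p = 0.17).

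Of the 5 tested genes around EpCAM, 2 were higher and 1 was lower (median 0.03), or 1 and 3 with TMM scaling. Epcam itself, the partner of claudin-7, was at 392 ± 1.79 and 391 ± 20.9 FPKM (SD, n = 3), with a log2 fold change of -0.00. The membrane protease prostasin (Prss8) rose (0.53, adjusted p = 9.1e-06) and the matriptase inhibitor Spint1 fell (-0.26, adjusted p = 4.0e-04). Matriptase (St14) was higher by 0.13 (adjusted p = 0.033), which turned to -0.02 with TMM scaling and had an adjusted p of 0.12 without Control replicate 2 and 0.097 without Control replicate 3. Of 9 adherens junction genes, 6 were higher and 3 did not pass (median 0.20), while with TMM scaling 4 were higher and 3 were lower. Nectin2, an immunoglobulin-like adhesion receptor, rose from 21.8 to 42.7 FPKM (0.94, adjusted p = 5.6e-07), and Nectin3 (0.63, adjusted p = 7.4e-04) and afadin, Afdn (0.44, adjusted p = 2.0e-05), which binds nectins to actin, were higher too. Of 9 desmosome genes, 4 were higher and 5 did not pass (median -0.01), while with TMM scaling 1 was higher and 4 were lower. Pkp1 rose (0.63, adjusted p = 2.6e-05), and the calls of the desmosomal cadherins Dsc2 and Dsg2 (0.33 and 0.32) were lost with TMM scaling. After GC correction Dsc2 was at 0.05 (limma adjusted p = 0.34) and Dsg2 at 0.17 (limma adjusted p = 0.042). Over all alternatives the adjusted p of Dsg2 reached 0.13.

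**Figure D4:**
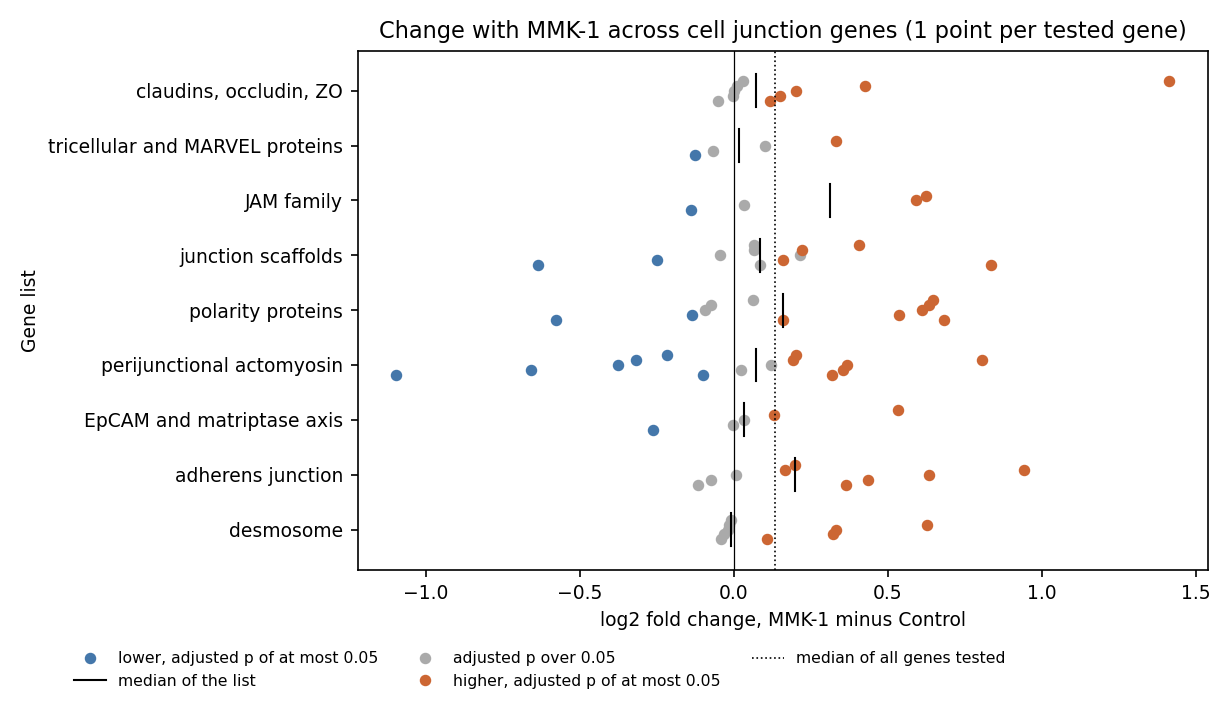
log2 fold change (MMK-1 minus Control, FPKM as deposited) of each tested junction gene by list, coloured by the limma call, with a bar at the median of each list and a dotted line at the median of all genes tested, 0.13. Cldn4 at 1.41 is the point farthest to the right and Mylk at -1.10 the point farthest to the left.

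Markers of the epithelial lineages also moved with the treatment. Of 14 enterocyte markers, 13 were lower and 1, Fabp1, was higher (median -1.50), and their summed level was 10656 to 10776 FPKM in Control and 5787 to 6212 FPKM with MMK-1. All 9 stem cell markers were higher (median 1.64, summed 88.1 to 90.4 and 441 to 467 FPKM), as were all 7 tested Paneth markers (median 1.78, summed 392 to 434 and 1280 to 1408 FPKM). Of 8 goblet markers 6 were higher and 2 lower (3 and 2 with TMM scaling), and of 7 tested enteroendocrine markers 6 were higher (5 with TMM scaling). With TMM scaling Fabp1 was not called, and the counts of the stem cell and Paneth markers were the same. The part of these shifts in the changes of the junction genes was not tested. Tuft markers summed to at most 2.32 FPKM in a library, stromal markers to at most 1.22, endothelial markers to at most 0.31 and immune markers to at most 6.19, with Kdr at 0 in all libraries. The immune sum was lower with MMK-1 (1.80 to 2.92 FPKM, against 5.41 to 6.19), and both tested members, Cd68 and Itgam, were lower. The stromal sum was 1.20 to 1.22 FPKM in Control and 0.36 to 0.47 FPKM with MMK-1, without overlap, and most of it was Pdgfrb (mean 1.10 and 0.26 FPKM), chosen here after its values were seen.

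By Euclidean distance between centred log2(FPKM + 1) values over the 6 libraries, the tested genes most like Cldn4 were Defa24 (distance 0.067), Rangrf (0.10) and Clps (0.10). Defa24 belongs to a family of near-identical defensin genes, so its level is uncertain. Those most like Cldn7, the member with the lowest log2 fold change, were Idh3g (0.027), Cox7a2l (0.033) and Akr7a5 (0.039).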

How the data were processed

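RNA was sequenced from 6 organoid libraries in 2 groups of 3. The authors deposited FPKM values per gene. The submitters' processing notes name HISAT2, HTSeq, R 3.2.0, DESeq2 and the build mm10, without versions for the other tools, and no scaling between libraries is stated. FPKM values were whole multiples of 1 step per gene and library, which gave whole fragments (within 0.001) for all 20676 genes above 0.

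Genes whose mean FPKM reached 1 were tested with limma 3.58.1 (R 4.3.3, lmFit and eBayes with trend) on log2(FPKM + 1), with Benjamini-Hochberg adjustment over all genes tested. Permutation tests were exact and two-sided. Alternatives covered pseudocount, filter, scaling, a replicate block, omitted libraries, limma-voom on fragments with TMM factors, and GC and length trends (local regression, span 0.3, 96.3% of genes matched). Coordinates came from GENCODE vM21 on GRCm38 and upstream sequences from RefSeq (GRCm38.p6). The scripts were tested on simulated data.

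Named genes were all 10 members, any other claudin whose mean FPKM reached 1, up to 3 genes per direction of each other junction list with an adjusted p up to 0.05, and the 3 genes nearest to the members with the highest and lowest log2 fold change. Members and lists were chosen with earlier results of these data known. The FPR genes were not analysed here, and 1 scaffold gene that the rule names is not reported here.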

Additional observations from a re-analysis of the deposited data

How the results depend on the processing

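The changes of Cldn4 and Cldn12 kept their direction and their side of the threshold under all alternatives, and at a fold change of at least 2 (or 1.5) Cldn4 was the 1 member called in each. The smaller changes depended on the scaling. The 5 members higher and 0 lower became 3 higher and 1 lower with upper-quartile scaling, 2 and 4 with limma-voom and TMM scaling, 2 and 4 after GC correction, 3 and 3 after length correction, and 3 higher without the filter on low values. The calls over all genes moved too, from 5118 higher and 2606 lower to 4395 and 3291 with upper-quartile scaling, 3725 and 3855 with TMM scaling, 3601 and 3867 after GC correction and 3534 and 3726 after length correction. Leaving out a library gave 3 to 5 higher, with 3 when Control replicate 1 was left out. The 31 higher and 13 lower genes of the junction lists became 27 and 22 with upper-quartile scaling, 20 and 27 with TMM scaling, 22 and 24 after GC correction and 18 and 29 after length correction, and leaving out a library gave 28 to 32 higher and 9 to 18 lower. The lowest of these was without Control replicate 2 or 3. The causes were not tested.

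Directions of small changes turned in several fits. With upper-quartile scaling Cldn23 was at -0.046 and Tjp1 at -0.068 on the log2 scale, and with TPM scaling Cldn15 was at 0.022 and Ocln at 0.024. With TMM scaling Cldn2 was at -0.033, Cldn3 at -0.0042, Cldn23 at -0.12, Tjp1 at -0.15 and St14 at -0.021. After GC correction Cldn3 was at -0.071, Cldn23 at -0.058, Tjp1 at -0.13 and Rock2 at -0.017, and after length correction Cldn23 was at -0.030, Tjp1 at -0.19 and St14 at -0.069. Leaving out a library gave -0.013 to 0.013 for Ocln, -0.012 to 0.034 for Tjp1, -0.045 to 0.037 for Cldn15, -0.042 to 0.071 for Cldn23 and -0.11 to 0.074 for Cldn8.

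The deviations of same-numbered libraries correlated at 0.03, -0.04 and 0.03, so no pairing by replicate number was seen. With 3 libraries per group these values cannot show that the samples were unpaired. With the replicate block 4 members were higher, Cldn2 no longer being called (adjusted p = 0.062), and 30 junction genes were higher and 11 lower. Among the named junction genes the block ended the calls of Marveld3 (adjusted p = 0.056) and St14 (adjusted p = 0.053). Each member had at least 580 fragments in a library, and for Cldn23, which had the fewest, the counting error was about 4.0%. The 12 other claudins with at most 8 fragments could not be compared.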
